A study of Mus musculus with 22 samples.

Results

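Anti-CTLA-4 was added to entinostat plus anti-PD-1 in tumour-bearing mice, and the transcripts of granulocytic myeloid-derived suppressor cells (G-MDSCs) from the tumours were compared between the triple combination and entinostat plus anti-PD-1. The samples were chosen by the names of their columns, which gave 4 samples of the triple combination and 4 of entinostat plus anti-PD-1, 8 of the 22 samples of the series, and all 655 endogenous genes of the panel. The remaining samples received entinostat plus anti-CTLA-4, entinostat alone or vehicle. G-MDSC RNA was hybridised to the NanoString mouse myeloid panel, which counts individual transcripts through fluorescent barcodes without amplification, and values are normalized counts on a linear scale.

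Every mouse of both groups was a female FVB-Neu-N (neu-N) animal, 7 to 8 weeks old at implantation, tolerant to the rat neu (HER2) protein that its transgene encodes. The mammary fat pad was injected with 50000 NT2.5 cells, which come from a mammary tumour that arose spontaneously. Dosing began 3 days later and went on for 3 weeks. Both groups received entinostat, 5 mg/kg by gavage each day in 0.5% methylcellulose, and anti-PD-1, 100 µg per mouse 2 times a week. The triple combination group also received anti-CTLA-4 at 100 µg per mouse on the same schedule. An anti-HER2 antibody was used in some studies of this model, and whether these mice had it is not given in the sources used here. Cells carrying Ly6G were taken from the dissociated tumours and run over columns 2 times. The labels do not tie a sample to one animal, so p-values measure the spread between these samples, which may be technical.

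Entinostat inhibits class I histone deacetylases. PD-1 and CTLA-4 are inhibitory receptors found mainly on T cells, and CTLA-4 competes with the co-stimulatory receptor CD28 for CD80 and CD86 on antigen-presenting cells. G-MDSCs resemble neutrophils, carry large stores of the calcium-binding proteins S100A8 and S100A9, and can restrain T cells through arginase, reactive oxygen species and prostaglandins. Ctla4 and Pdcd1, the genes of both antibody targets, stayed under the limit for testing in these cells.

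There are 2 columns of the triple combination that carry the same name and are called samples a and b. The others are samples 2 and 4. Cartridge and lane are read here from fields of the column names, which do not use those words. The names of the 2 cartridges also begin with different dates, so cartridge and date cannot be told apart. Sample a was run on cartridge 1, in a lane between vehicle samples, and samples b, 2 and 4 on cartridge 2. All 4 entinostat plus anti-PD-1 samples were on cartridge 1. Vehicle sample 3 was run on cartridge 2 in the lane after triple combination sample 4, and the lanes on both sides of sample a held vehicle samples 2 and 4. Whether the labels of sample a and vehicle sample 3 were exchanged was not tested, and results are also given without sample a. Depth was 391309, 140839, 23296 and 111734 barcode counts in triple combination samples a, b, 2 and 4, against 178490, 180237, 260317 and 202656 in entinostat plus anti-PD-1 samples 1 to 4. The log2 depth differed by -0.89 between the groups, with a two-sided exact permutation p of 0.4 where 0.0286 is the smallest that 4 against 4 samples allow. In sample 2 a single barcode was worth 9.78 normalized counts, and its negative controls averaged 28.1 normalized counts, so its low values are coarse. Sample a was the lowest of the 4 triple combination samples in 223 of 420 tested genes, and sample 2 the highest in 178.

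No gene passed the test. Genes were tested where a group mean passed 29.3 normalized counts, a limit of 2 SD over the mean of the negative control probes, and of these 420 genes limma called 0 at a Benjamini-Hochberg adjusted p under 0.05, a share of 0%, and the smallest adjusted p was 0.602. At an unadjusted p under 0.05 there were 8 genes with higher values in the triple combination (1.9% of those tested) and 25 with lower values (5.95%). Without sample a the balance turned round, with 17 higher (4.05%) and 7 lower (1.67%), and without both sample a and vehicle sample 3 it was 17 higher and 9 lower. DESeq2 also called 0, with 2 higher and 35 lower at an unadjusted p under 0.05, and edgeR called 0 with lane factors, with 5 higher and 14 lower. The median log2 fold change over all tested genes was -0.06, with 173 positive and 247 negative (58.8%). Under quantile normalization 227 were positive and 193 negative, and without sample a 208 and 212. The 95% interval of the fold change lay inside 1 log2 unit on both sides of 0 for 230 genes (54.8%), and for the other 190 it reached a 2-fold change in at least 1 direction. The median half-width was 0.62.

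The samples themselves fell apart unevenly by direction. All 4 triple combination samples lay below all 4 entinostat plus anti-PD-1 samples in 56 genes (13.3% of those tested), and above them in 8 (1.9%). Members of the neutrophil and NF-kB lists were among the genes that lay lower, and Ercc1, Gata3 and Smad1 among those that lay higher. The spread was wider in the triple combination, where the median SD over genes was 0.40 on the log2 scale, against 0.23 in entinostat plus anti-PD-1.

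**Figure D1:**
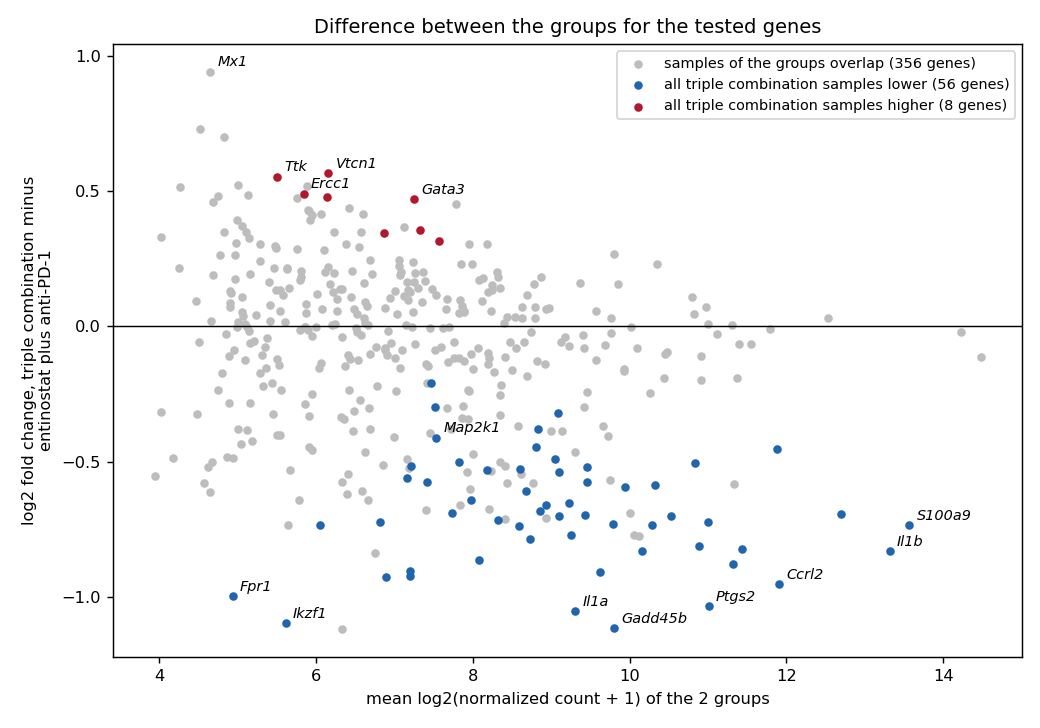
Log2 fold change of each of the 420 tested genes, triple combination minus entinostat plus anti-PD-1 (vertical axis), against the mean log2(normalized count + 1) of both groups (horizontal axis). Blue points are the 56 genes whose 4 triple combination values all lay below the 4 entinostat plus anti-PD-1 values and red points the 8 in which all lay above; most blue points sit at a mean over 6, and no gene passed the adjusted test.

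Neutrophil genes were lower in the triple combination in 13 of the 14 tested members of a list of granule proteins, receptors and maturation markers, and 9 of the 14 had groups that did not overlap, beside 58.8% negative and 13.3% lower without overlap over all tested genes. The median log2 fold change of the list was -0.69, against -0.06 over all tested genes, and none of its members passed the test. Under quantile normalization the list median was -0.41, still with 13 negative members. It was -0.51 without sample a, -0.67 without sample 2 and -0.73 with the cartridge as a term. In bulk samples fewer cells of a type and less RNA per cell cannot be told apart.

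S100a9, which encodes a subunit of calprotectin, had 8842, 11476, 8271 and 9362 normalized counts in triple combination samples a, b, 2 and 4, against 16171, 14942, 13679 and 18314 in entinostat plus anti-PD-1 samples 1 to 4. Every triple combination value lay under every entinostat plus anti-PD-1 value. The log2 fold change was -0.74 (95% interval -1.75 to 0.28), with an adjusted p of 0.705 in limma. Vehicle samples averaged 5879 ± 4373 (SD, n = 6). Quantile normalization took the S100a9 fold change to -0.00, since the gene ranks near the top of every sample.

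S100a8, its partner subunit, had 5097, 6192, 5113 and 4561 normalized counts in the triple combination, against 8618, 8277, 7339 and 9596 in entinostat plus anti-PD-1. The groups did not overlap, and the log2 fold change was -0.69 (95% interval -1.75 to 0.36). Fpr1 and Fpr2 encode receptors for formylated peptides that guide neutrophils to bacteria. Fpr2 had 85.1, 115, 117 and 110 normalized counts in the triple combination and 216, 182, 168 and 252 in entinostat plus anti-PD-1, a log2 fold change of -0.93 with no overlap. Fpr1 had 20.6, 28.7, 9.78 and 31.0 against 52.4, 39.4, 32.6 and 47.6, where the lowest triple combination value rests on 1 barcode. Its fold change of -0.997 became -0.66 without sample 2. Triple combination samples a, b and 2 were under the limit of 29.3 normalized counts for Fpr1. The gene was tested because its mean passed that limit in other groups, entinostat plus anti-PD-1 among them.

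Hdc, the enzyme that makes histamine, had 134, 211, 215 and 262 normalized counts in the triple combination and 338, 394, 308 and 431 in entinostat plus anti-PD-1, without overlap. Cxcr2, the receptor through which CXC chemokines draw neutrophils into tissue, had 258, 291, 420 and 347 against 485, 401, 471 and 542, and here sample 2 lay above one entinostat plus anti-PD-1 sample. Mmp9, a gelatinase stored in neutrophil granules, had 191, 243, 293 and 364 against 480, 410, 342 and 532, with sample 4 inside the other group's range. Ly6g, the selection marker itself, was under the limit for testing in both groups, although the cells had been selected on it. S100a8, S100a9 and Cxcr2 were well above that limit in all 8 samples.

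Inflammatory genes that NF-kB and TNF induce were lower in 20 of 23 tested members, of which 7 had groups without overlap and 5 had an unadjusted p under 0.05. Over all tested genes the shares were 58.8% negative, 13.3% lower without overlap and 5.95% lower at an unadjusted p under 0.05. The list median was -0.62, and none passed the adjusted test. The median was -0.38 under quantile normalization and -0.31 without sample a, where 16 of the 23 members were negative. NF-kB factors rest in the cytoplasm bound to IkB inhibitors until toll-like receptors, IL-1 or TNF set them free, and they then switch on cytokines, chemokines and their own inhibitors.

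Gadd45b, a stress gene induced by NF-kB, had 594, 800, 391 and 725 normalized counts in the triple combination, against 1423, 1334, 1057 and 1493 in entinostat plus anti-PD-1. All 4 triple combination samples lay below the other group, and the log2 fold change of -1.12 (95% interval -2.03 to -0.20) had an adjusted p of 0.602 in limma. Ptgs2, which encodes the prostaglandin synthase COX-2, had 1626, 2036, 870 and 1488 against 3012, 3067, 2587 and 3177, a log2 fold change of -1.04 (95% interval -2.01 to -0.07). Nothing overlapped there either, and without sample 2, its lowest, the fold change was -0.79.

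Nfkbia, the inhibitor IkB-alpha, had 1120, 1912, 1496 and 2030 normalized counts in the triple combination and 2699, 2908, 2265 and 2733 in entinostat plus anti-PD-1. Nfkbiz, a nuclear member of the same inhibitor family, had 788, 1344, 1124 and 1515 against 1917, 1925, 1654 and 2073. Their log2 fold changes were -0.72 and -0.70 with no overlap in either gene, and sample a gave the lowest value of both. Without it Nfkbia was at -0.55.

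Interleukin-1 genes were lower in all 6 tested members of the family and inflammasome list, with a median log2 fold change of -0.79 and 3 genes without overlap. Among all tested genes 58.8% were negative and 13.3% lower without overlap. Il1b, Il1a and Nlrp3 also belong to the NF-kB list above. Il1b, the main secreted form, had 6370, 9785, 7157 and 7711 normalized counts in the triple combination against 14356, 12768, 12632 and 14897 in entinostat plus anti-PD-1. No value was shared between the groups, the log2 fold change was -0.83 (95% interval -1.75 to 0.09), and it shrank to -0.10 under quantile normalization. Il1a, an alarmin released from damaged cells, had 249, 588, 411 and 618 against 986, 888, 699 and 1131, a log2 fold change of -1.05 (95% interval -2.10 to -0.01). Sample a was lowest here, and without it the Il1a fold change was -0.78. Il1rn, the receptor antagonist that blunts both cytokines, was lower as well, at -0.81 with no overlap. Nlrp3, the sensor of the inflammasome that matures IL-1beta, had 389, 972, 1056 and 1304 against 1497, 1452, 1214 and 1689, and its sample 4 lay inside the other group.

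**Figure D2:**
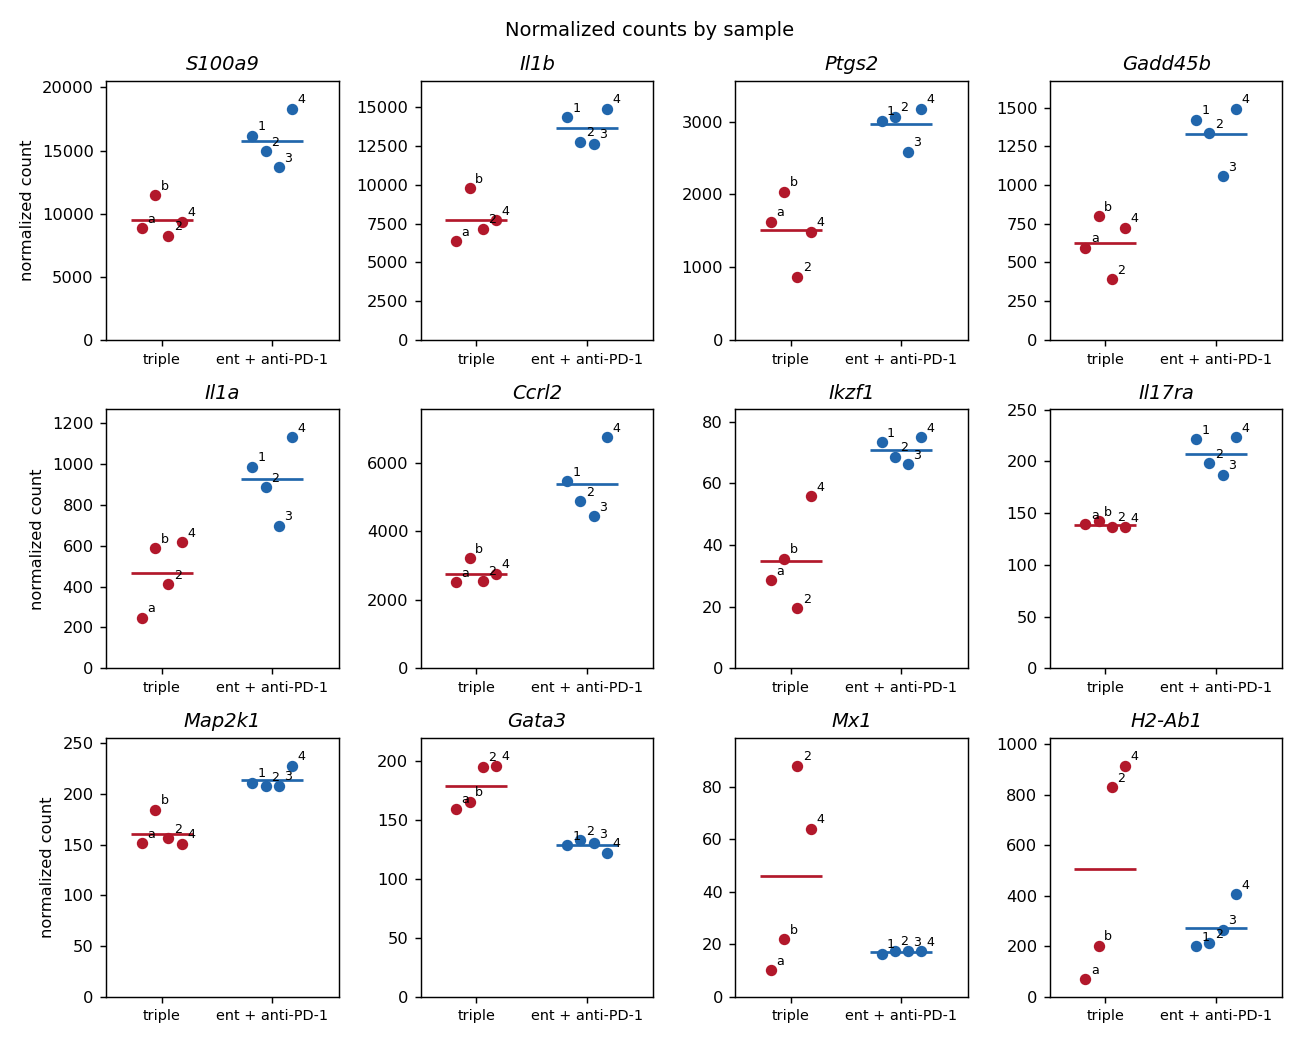
Normalized counts (linear axis from 0) of 12 genes in each triple combination sample (red, a, b, 2 and 4) and each entinostat plus anti-PD-1 sample (blue, 1 to 4), with group means as lines. The red points of S100a9, Il1b, Ptgs2, Gadd45b, Il1a, Ccrl2, Ikzf1, Il17ra and Map2k1 all lie below the blue ones, those of Gata3 all lie above, and Mx1 and H2-Ab1 are highest in triple combination samples 2 and 4.

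Chemokines and their receptors gave a mixed picture. Of 15 tested chemokine receptors, integrins and selectin ligands, 12 were lower and 7 had no overlap, with a median log2 fold change of -0.54. Over all tested genes 58.8% were negative and 13.3% lower without overlap, with a median of -0.06. Ccrl2, an atypical receptor that presents chemerin, had 2509, 3211, 2562 and 2765 normalized counts in the triple combination against 5474, 4890, 4440 and 6751 in entinostat plus anti-PD-1. Its log2 fold change was -0.95 (95% interval -1.91 to 0.00), with an adjusted p of 0.602 in limma, and quantile normalization brought it to -0.49. Cxcr4, the receptor for CXCL12 that holds neutrophils in bone marrow, had 508, 622, 870 and 794 against 1221, 980, 1104 and 1258, again without overlap. C5ar1, the receptor for the complement fragment C5a, lay at -0.70, and Selplg, the ligand through which leukocytes roll on selectins, at -0.72. Neither gene overlapped between the groups.

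Among the CXC chemokines, Cxcl2, which attracts neutrophils, had 1231, 2242, 2112 and 2143 normalized counts in the triple combination and 3408, 3753, 2681 and 4187 in entinostat plus anti-PD-1. Every triple combination sample was lower. Cxcl1 (-0.58) and Cxcl3 (-0.74), close relatives of Cxcl2, overlapped between the groups. CC chemokines did not share a direction, with 3 of 8 tested members negative, beside 58.8% of all tested genes, and a list median of 0.06. Ccl3 had 592, 614, 694 and 432 against 953, 1086, 845 and 1544, with no overlap, whereas Ccl8 ranged between 105 and 909 in the triple combination and between 102 and 617 in entinostat plus anti-PD-1. Ccl3 attracts macrophages and T cells, and Ccl8 is a monocyte attractant.

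Suppressive effectors had a list median of -0.22, against -0.06 over all tested genes, and 12 of 14 members were negative, beside 58.8%. Under quantile normalization the list median was -0.02, and 7 members were negative. Ptgs2, Il1rn and Stat6 were the members without overlap, and 13.3% of all tested genes were lower without overlap. Stat6, the transcription factor of IL-4 and IL-13 signalling, had 185, 194, 205 and 178 normalized counts in the triple combination against 238, 279, 269 and 298. Arg1, the arginase that depletes arginine, had 44.9, 64.2, 78.2 and 33.1 against 25.4, 23.4, 46.0 and 147. Its log2 fold change of 0.21 (95% interval -0.91 to 1.34) was -0.21 in edgeR with lane factors, so it has no direction here. Nos2 and Il10 were under the limit for testing.

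Cybb, the catalytic subunit of the NADPH oxidase, had 29.1, 71.0, 127 and 149 normalized counts in the triple combination against 41.9, 62.8, 61.4 and 140, and Cd274, which encodes PD-L1, had 80.4, 208, 782 and 353 against 316, 293, 196 and 320. Both genes overlapped widely and were lowest in sample a. Cd274 was at -0.08 over all samples, at 0.48 without sample a and at -0.61 without sample 2. Vegfa (-0.33), an angiogenic factor, Tgfb1 (-0.14), a suppressive cytokine, and Stat3 (-0.08), a transcription factor of suppressive myeloid cells, overlapped between the groups, and Stat3 was at 0.22 under quantile normalization. Among the ligands of CTLA-4, Cd80 had 43.9, 64.2, 58.7 and 110 against 88.3, 94.9, 87.3 and 125 and Cd86 had 24.9, 28.7, 137 and 72.3 against 47.9, 59.9, 52.8 and 107. Neither separated the groups.

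Some lower genes outside these lists had narrow spreads. Il17ra, a receptor chain for IL-17, had 140, 142, 137 and 136 normalized counts in the triple combination against 222, 199, 187 and 223 in entinostat plus anti-PD-1. The triple combination samples were nearly level and all lower, at a log2 fold change of -0.57 (95% interval -0.98 to -0.17). Map2k1, the kinase MEK1, had 151, 184, 156 and 151 against 211, 207, 208 and 228, a log2 fold change of -0.41 (95% interval -0.66 to -0.17). It had the smallest p of the comparison, yet its adjusted p was 0.602 in limma. Adgre5 (-0.44), the leukocyte adhesion receptor CD97, Rhog (-0.74), a small GTPase, Sema4a (-0.52), a semaphorin, and Tlr6 (-0.74), a partner of TLR2, also had no overlap. Ell2 (-1.12), an elongation factor, and Jak3 (-0.51), the kinase of common gamma chain receptors, overlapped. Furin (-0.32), a proprotein convertase, had no overlap but was at 0.02 under quantile normalization.

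Other genes had higher values in the triple combination. Gata3, a transcription factor of luminal mammary cells and T cells, had 160, 166, 196 and 196 normalized counts in the triple combination against 129, 133, 130 and 123 in entinostat plus anti-PD-1. All 4 samples lay above the other group, at a log2 fold change of 0.47 (95% interval 0.10 to 0.84) and an adjusted p of 0.602 in limma. Ercc1, a DNA repair endonuclease subunit, had 61.3, 76.1, 78.2 and 55.8 against 38.9, 45.2, 52.8 and 54.8, a log2 fold change of 0.49 in which sample 4 was only just above the highest of the other group. Smad1, which carries BMP signals, had 77.2, 77.8, 78.2 and 97.1 against 56.9, 58.4, 67.1 and 53.3, at 0.48.

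Ttk, a mitotic checkpoint kinase, and Ccnb2, a mitotic cyclin, lay at 0.55 and 0.36 with no overlap. Vtcn1, the checkpoint ligand B7-H4, had 65.6, 65.9, 156 and 80.6 normalized counts against 50.9, 54.0, 62.3 and 64.9, a separation of under 1 normalized count at the closest samples. Lrp6 (0.32), a co-receptor for Wnt, also had no overlap. Rab3d (0.35), a secretory GTPase, Yap1 (0.30), the effector of Hippo signalling, and Btla (0.52), an inhibitory receptor, overlapped between the groups. None of these genes passed the test.

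Genes of antigen presentation, interferon response and macrophages split the triple combination itself. H2-Ab1, an MHC class II chain, had 69.8 and 203 normalized counts in samples a and b and 831 and 916 in samples 2 and 4, against 201, 213, 267 and 406 in entinostat plus anti-PD-1. Samples 2 and 4 lay above every entinostat plus anti-PD-1 sample and sample a below. Cd74, the invariant chain that escorts class II, followed the same order, with 234, 683, 2307 and 2509 against 567, 620, 828 and 1516. The 4 class II genes were at a list median of 0.29, which became 1.00 without sample a, -0.20 without sample 2 and -0.60 with the cartridge as a term.

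Mx1, an interferon-induced antiviral GTPase, had 10.1, 22, 88.0 and 64.1 normalized counts in the triple combination against 16.5, 17.5, 17.3 and 17.3, where the value of sample 2 came from 9 barcodes. Every entinostat plus anti-PD-1 value, and those of triple combination samples a and b, lay under the limit of 29.3 normalized counts. On the log2 scale only the triple combination had a mean over that limit, so the filter favoured a positive value for Mx1. The group averages differed by a log2 fold change of 0.94 (95% interval -0.29 to 2.18), which was 0.49 without sample 2. Of 9 tested interferon genes 6 were positive, beside 173 of all 420 tested genes. The median of the 9 was 0.16, and it was -0.05 without sample 2 and -0.07 with the cartridge term. Psmb9 (0.43) and Psmb8 (0.18), subunits of the immunoproteasome, overlapped between the groups. The macrophage genes Mrc1, the mannose receptor, Csf1r, the receptor for M-CSF, and Adgre1, which encodes F4/80, overlapped too, and 10 monocyte and macrophage genes had a median of 0.08, 0.49 without sample a and -0.28 without sample 2.

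**Figure D3:**
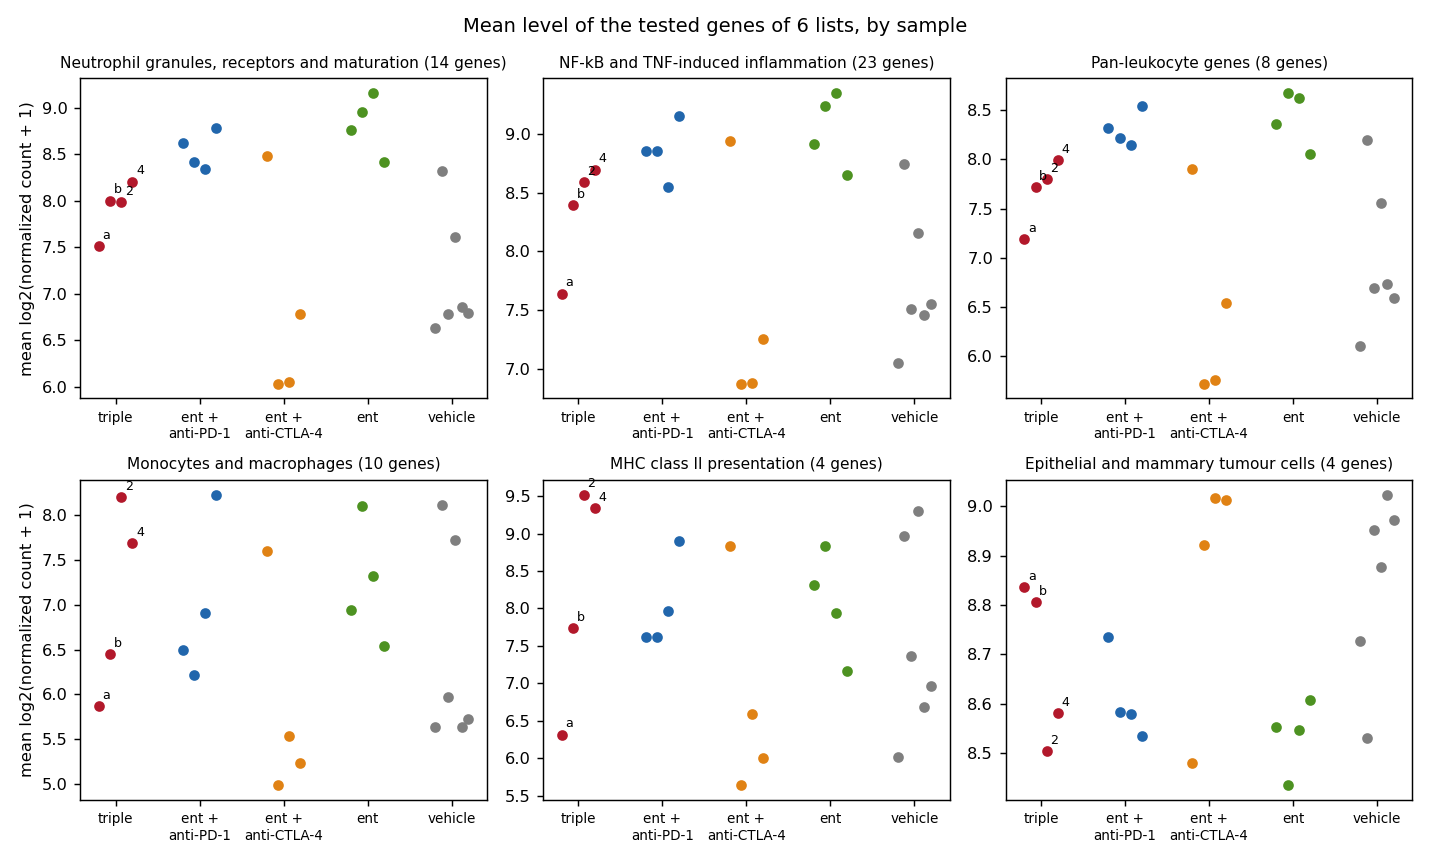
Mean log2(normalized count + 1) over the tested genes of 6 lists (panels), for each sample of the triple combination (red, labelled a, b, 2 and 4), entinostat plus anti-PD-1 (blue), entinostat plus anti-CTLA-4 (orange), entinostat (green) and vehicle (grey). For neutrophil and pan-leukocyte genes the triple combination samples, at 7.51 to 8.21 and 7.19 to 7.99, all lie below those of entinostat plus anti-PD-1, at 8.34 to 8.78 and 8.14 to 8.55, while macrophage and class II genes spread widely within groups.

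Markers of other cells were measured beside these genes. Pan-leukocyte genes were lower in the triple combination in 8 of 8 tested members, 6 without overlap, with a median log2 fold change of -0.62. The shares over all tested genes were 58.8% negative and 13.3% lower without overlap. Ikzf1, a transcription factor of blood cells, had 28.6, 35.5, 19.6 and 55.8 normalized counts against 73.3, 68.6, 66.2 and 75.0. Its log2 fold change was -1.10, and the value of sample 2 came from 2 barcodes. Laptm5 (-0.70), a lysosomal protein of blood cells, and Tyrobp (-0.74), the adaptor DAP12, also had no overlap. The 8 pan-leukocyte genes summed to between 2040 and 3445 normalized counts in the triple combination and between 4006 and 5246 in entinostat plus anti-PD-1. All 20 neutrophil genes of the panel summed to between 15743 and 20270 and between 24595 and 32594. S100a9 and S100a8 made up most of the neutrophil sum in every sample of both groups.

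The 4 epithelial genes of the panel, Cdh1, Areg, F11r and Ptprk, summed to 1770 to 2343 normalized counts in the triple combination and 1859 to 2049 in entinostat plus anti-PD-1, with a median log2 fold change of 0.08. Cdh1, E-cadherin, had 1162, 1047, 890 and 841 against 918, 886, 887 and 820. Samples a and b, the lowest of their group in the mean of the pan-leukocyte genes, were the highest for Cdh1. The 9 fibroblast genes summed to 3775 to 4582 against 3926 to 4860, the 5 endothelial genes to 174 to 616 against 227 to 419, and the 15 monocyte and macrophage genes to 1101 to 4859 against 1239 to 5921. T cell (4 genes), B cell (2 genes) and NK cell (3 genes) markers were all under the limit for testing, with T cell sums of 11.1 to 68.4 against 25.9 to 47.6. The part of tumour or other cells in the lower neutrophil values was not tested.

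**Figure D4:**
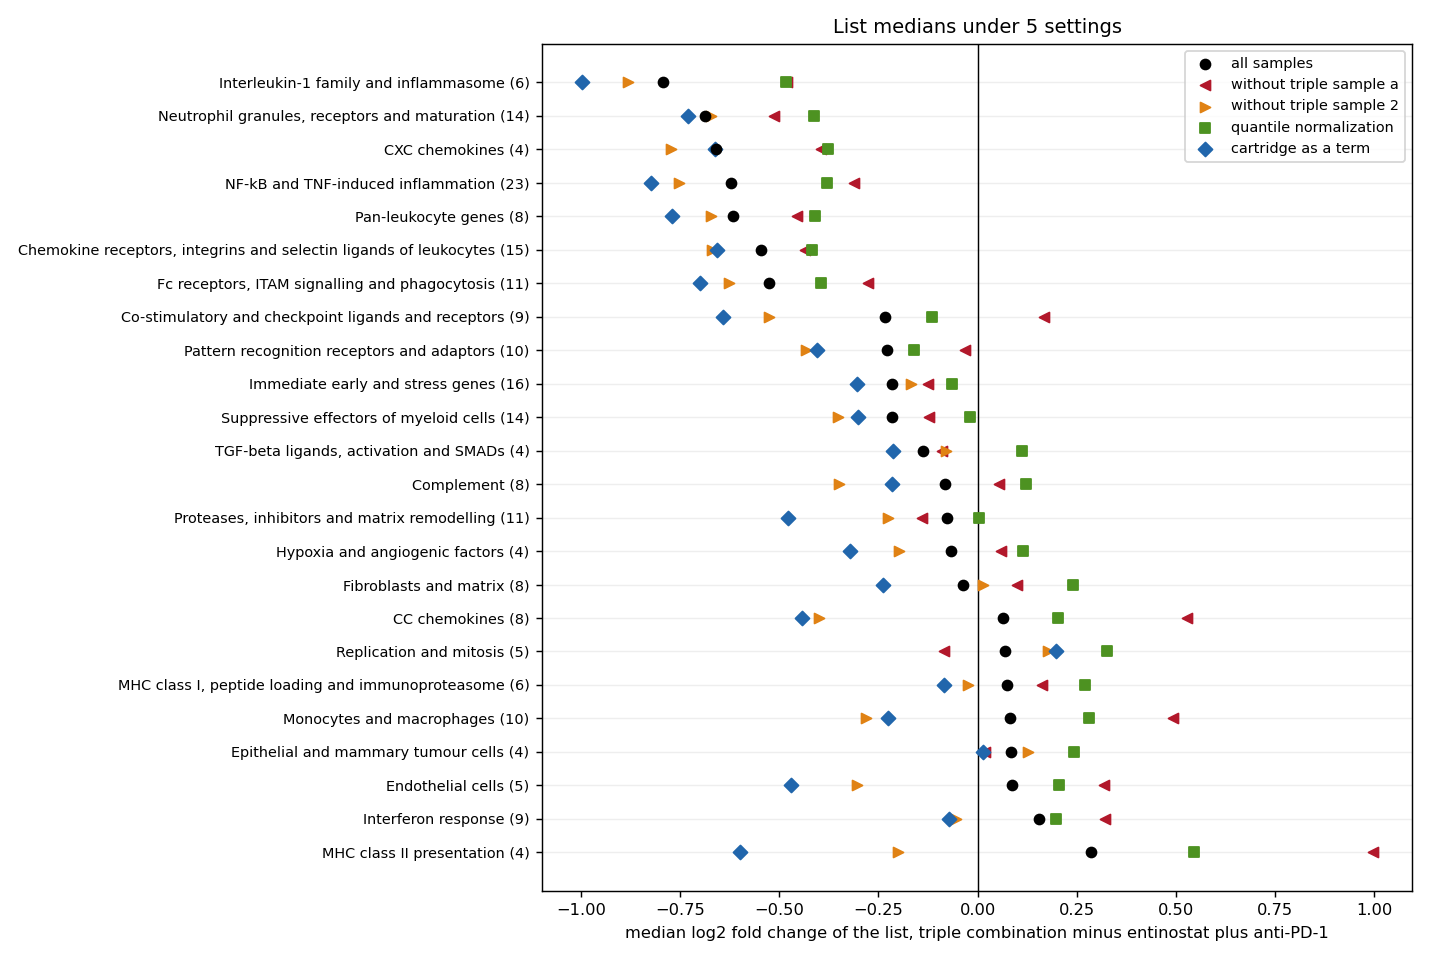
Median log2 fold change of each gene list with at least 4 tested members (number in brackets), triple combination minus entinostat plus anti-PD-1, with all samples and under 4 other settings. The lists at the top, interleukin-1, neutrophil, CXC chemokine, NF-kB, pan-leukocyte, receptor and Fc receptor genes, stay below 0 under all 5 settings. Pattern recognition, suppressive and stress genes, with medians nearer 0, do so too. Class II, macrophage, endothelial and CC chemokine genes lie on either side of 0.

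Whether the response to anti-CTLA-4 differed by the presence of anti-PD-1 was tested as the difference between 2 differences, the triple combination minus entinostat plus anti-PD-1 and entinostat plus anti-CTLA-4 minus entinostat, which share no samples. limma called 0 of 420 genes (0%), and at an unadjusted p under 0.05 there were 77 positive (18.3%) and 4 negative (0.952%). In the second difference all 4 entinostat plus anti-CTLA-4 samples were on cartridge 2 and all 4 entinostat samples on cartridge 1, so drug and cartridge cannot be told apart within it. With the cartridge as a term, estimated from the triple combination and vehicle samples that were on both, 0 genes passed, with 92 positive and 5 negative at an unadjusted p under 0.05.

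Of the genes with the smallest p given here, Hist2h2aa1, a histone H2A gene with close copies that a probe may not tell apart, had an adjusted p of 0.196 in limma. It had 1482, 1469, 1584 and 1054 normalized counts in the triple combination against 1444, 1474, 1567 and 1421 in entinostat plus anti-PD-1, and 1278, 1979, 1949 and 1811 in entinostat plus anti-CTLA-4 against 1118, 963, 1041 and 1090 in entinostat. The first pair of groups overlapped and the second did not, and the difference of the log2 fold changes was -0.81 (95% interval -1.25 to -0.38). Plau, the protease urokinase, had 377, 414, 274 and 296 in the triple combination against 498, 442, 380 and 421, and 387, 485, 684 and 634 in entinostat plus anti-CTLA-4 against 333, 371, 363 and 351 in entinostat, a difference of -0.96. Ercc1 was at 0.49 in the first comparison and -0.34 in the second, a difference of 0.84.

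The differences of the other leading genes were 1.95 for Amica1, a junctional adhesion molecule of leukocytes, 2.16 for Slc16a6, of the monocarboxylate transporter family, 0.94 for Sp4, a zinc finger transcription factor, -0.64 for Cx3cl1, the chemokine fractalkine, -0.39 for Mif, a cytokine, and -0.40 for Cd151, a tetraspanin. None passed the test, and Sp4 was at -0.13 under quantile normalization. Amica1 was over the limit for testing only in entinostat alone. That group enters the difference with a positive sign, so the filter favoured a positive value for this gene. S100a9 had a log2 fold change of -0.74 in the first comparison and -2.22 in the second, a difference of 1.48, and Ptgs2 had -1.04 and -1.86.

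Neutrophil genes had a list median of -0.69 when anti-CTLA-4 was added to entinostat plus anti-PD-1 and -2.14 when it was added to entinostat alone, and NF-kB genes had -0.62 and -1.69. In the second comparison 3 of the 4 entinostat plus anti-CTLA-4 samples had neutrophil levels of 6.03 to 6.78 on the log2 scale. Sample a of that group stood apart at 8.48. Its column carries the same name as that of sample b of the group, so only the group is known. Without this sample a 152 genes passed, 145 of them with a positive difference. The median difference over all tested genes was 0.61, and quantile normalization put it at -0.10, with 24 positive and 29 negative genes at an unadjusted p under 0.05. Median centring, which sets the typical difference near 0 by its construction, gave 26 positive and 61 negative.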

How the data were processed

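The authors deposited a table of normalized counts (a linear signal) covering 655 endogenous and 20 housekeeping genes with 8 negative and 6 positive controls in 22 samples. How they were normalized is not given in the sources used here. The tool named in the submitters' processing notes is limma, with no role given. The labels give total RNA from Ly6G-selected cells. Values up to 200 in every sample were whole multiples of a step, within 0.02 counts (100%), and division by the step gave barcode counts, used for depth and for the count tests. No column of values was left unused. All pairs of samples within a group differed beyond sampling noise, with a chi-square of at least 2.72 per degree of freedom.

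The log2 of the deposited signal plus 1 was fitted with limma 3.58.1 (R 4.3.3), 5 group means over all 22 samples with 17 residual and 2.14 prior degrees of freedom. Genes with no group mean over the background limit (negative control mean and 2 SD) were left out (235), and p-values were Benjamini-Hochberg adjusted over the 420 others, two-sided at 0.05. Fold changes are on the log2(value + 1) scale, which understates those of low genes. Intervals cover 95%. Alternatives used edgeR 4.0.16 quasi-likelihood, DESeq2 1.42.0, other pseudocounts (0.1 and 10), scalings, filters, sample weights, the cartridge and left-out samples. The fit was tested on simulated data.

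The groups compared, the 29 gene lists and the naming rule were chosen with earlier results of these data known, so list counts are descriptions. Some genes stand in more than 1 list, Itgam, Tyrobp, Ptgs2, Il1rn and Gadd45b among them, so the lists are not separate observations. With no gene called, the rule named the 10 genes with the smallest p in each direction, the 6 with the largest change among genes without overlap in each direction, 16 fixed genes, up to 4 members of each list and the 5 leading genes in each direction for the difference of effects. Of these, the genes that speak to the groups described are given. Of the 10 leading genes for the difference of effects, 9 are given and 1 is not reported here.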

Additional observations from a re-analysis of the deposited data

Results flagged for a closer look

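Within the 2 groups of 4 samples, a sample was singled out where its gap to the nearest other sample as a share of the group's whole log2 range exceeded the 95% critical value of Dixon's test for 4 samples. Of 220 groups of values examined, 12 held such a sample, and chance alone gives about 1 in 20.

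Triple combination sample a stood low for Cdkn1a, a cell cycle inhibitor, at 513 normalized counts, for Cxcl2 at 1231 and for Il1rn at 840. Triple combination sample 4 stood high for Smad1 at 97.1, and sample 2 for Tlr3, a receptor for double-stranded RNA, at 97.8, which rests on 10 barcodes. Entinostat plus anti-PD-1 sample 3 stood low for Cdkn1a at 738, for Cxcl1 at 2304, for Ttk at 22.1 and for Sele, E-selectin, at 38.4. Sample 4 of that group stood high for H2-DMa, a class II loading chain, at 70.6, and for Sirpa, the CD47 receptor, at 474, and sample 2 low for Furin at 569. Without triple combination sample a the log2 fold change of Il1rn was -0.56 and that of Cxcl2 was -0.68, against -0.81 and -0.88 with it.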

How the results depend on the processing

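Triple combination against entinostat plus anti-PD-1 called 0 genes under all 26 other settings, and no named gene passed in any. The smallest adjusted p of a named gene over them was 0.0811, in limma fitted to the 8 samples of both groups alone, where 70 genes were lower and 6 higher at an unadjusted p under 0.05. Sample weights gave 71 lower and 15 higher, and sample a alone within cartridge 1, assumed to vary like the other groups, 63 lower and 4 higher. There were 7 lower and 17 higher without sample a. A filter for genes above background in both groups tested 376 genes. The difference of the anti-CTLA-4 effects called 56 genes with the replicate block, and 0 to 152 when single samples were left out: 152 with sample a of entinostat plus anti-CTLA-4 left out and 1 without entinostat plus anti-PD-1 sample 1. Hist2h2aa1, Plau, Amica1 and Slc16a6 passed under both the block and the first of these, Ercc1, Sp4, Cx3cl1 and S100a9 under the first of these alone, and Sp4 was at -0.13 under quantile normalization. The cause was not tested. With all samples, Amica1 was over the limit for testing only in entinostat alone. Replicate numbers joined the groups only through numbers 2 and 4, whose deviations correlated at -0.17 and 0.38, so they were not taken as pairs. With the replicate block the triple combination comparison called 0 genes, smallest adjusted p 0.227 in limma, and 0.0957 on the same columns without it. The alternatives without samples a and 2, and the columns without the block, were chosen after seeing the data.

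The signs of 23 of the 83 tested genes named here changed under at least 1 setting, as did those of 44 of the 108 genes that the naming rule gave. The changed values follow. With the replicate block, these were Adgre1 at 0.19, Areg at -0.17, Arg1 at -0.043, Cd274 at 0.80, Cd86 at 0.34 and Csf1r at 0.27. On the same columns without the block, these were Adgre1 at 0.39, Areg at -0.14, Cd274 at 0.93, Cd86 at 0.64, Cdh1 at -0.020 and Csf1r at 0.37. Leaving out both triple combination sample a and vehicle sample 3, these were Adgre1 at 0.046, Areg at -0.035, Cd274 at 0.48, Cd86 at 0.057 and Csf1r at 0.18. With the cartridge as a fixed term, these were Areg at -0.067, Arg1 at -0.089, Cd74 at -0.58, Cybb at -0.21, H2-Ab1 at -0.68, H2-DMa at -0.62, Mx1 at -0.073, Psmb8 at -0.068, Psmb9 at -0.029 and Sele at -0.043. In edgeR with lane factors, these were Arg1 at -0.21 and Cd274 at 0.27. In DESeq2, these were Arg1 at -0.030, Cd274 at 0.28, F11r at 0.11, Hist2h2aa1 at 0.016 and Stat3 at 0.035. Within cartridge 1, sample a against all 4, these were Arg1 at -0.0025, Btla at -0.24, Ccl8 at -0.83, Cd74 at -1.80, Cybb at -1.22, F11r at 0.17, H2-Ab1 at -1.89, H2-DMa at -2.16, Hist2h2aa1 at 0.0057, Mrc1 at -0.67, Mx1 at -0.71, Psmb8 at -0.23, Psmb9 at -0.44, Sele at -0.56 and Stat3 at 0.031. Under quantile normalization, these were Cd274 at 0.16, Csf1r at 0.041, F11r at 0.26, Furin at 0.017, Hist2h2aa1 at 0.19, Stat3 at 0.22 and Tgfb1 at 0.077. In edgeR with TMM factors, these were Cd274 at 0.19, F11r at 0.12, Hist2h2aa1 at 0.023 and Stat3 at 0.035. Without triple combination samples a and 2, these were Csf1r at 0.057, F11r at 0.025 and Tgfb1 at 0.070. After median centring, it was F11r at 0.038. With sample weights, these were F11r at 0.092, Psmb8 at -0.0013 and Sele at -0.34. When single samples were left out, the ranges of those that changed sign were Adgre1 -0.52 to 0.16, Areg -0.045 to 0.11, Arg1 -0.093 to 0.77, Ccl8 -0.15 to 1.02, Cd274 -0.61 to 0.48, Cd74 -0.18 to 0.96, Cd86 -0.75 to 0.057, Csf1r -0.28 to 0.18, Cybb -0.10 to 0.67, F11r -0.13 to 0.073, H2-Ab1 -0.19 to 1.04, H2-DMa -0.37 to 1.13, Hist2h2aa1 -0.16 to 0.034, Mrc1 -0.14 to 0.92, Sele -0.18 to 0.58. Depth limits the low genes of sample 2, where 1 barcode is worth 9.78 normalized counts.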

Other observations

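Of 16 tested immediate early and stress genes, 10 had lower values in the triple combination, 5 without overlap, and the median log2 fold change was -0.22. Over all tested genes 58.8% were negative and 13.3% lower without overlap, and with TMM factors 8 of the 16 were negative. Dusp1, a phosphatase that switches off MAP kinases, had 2984, 3549, 3246 and 3160 normalized counts in the triple combination against 3946, 4492, 4388 and 4893 in entinostat plus anti-PD-1, a log2 fold change of -0.45 with no overlap and an adjusted p of 0.614 in limma. Cdkn1a, the inhibitor p21, had 513, 599, 596 and 597 against 898, 911, 738 and 898, also without overlap. Egr2, an early growth response factor, overlapped at -0.46.

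Fc receptor and phagocytosis genes were lower in 10 of 11 tested members, 3 without overlap, with a median of -0.53 that was -0.28 without sample a. The shares over all tested genes were again 58.8% negative and 13.3% lower without overlap. Tyrobp is also in the pan-leukocyte list, and Itgam is also in the neutrophil and receptor lists. Fcgr3, an activating receptor for IgG, had 113, 108, 147 and 174 normalized counts in the triple combination against 235, 168, 180 and 291, where sample 4 lay inside the other group. Itgam, the CD11b integrin chain of neutrophils and macrophages, had 163, 161, 147 and 205 against 257, 242, 219 and 392, with no overlap. Of 11 proteases and inhibitors 8 were lower, none without overlap, with a median of -0.08. Plaur, the urokinase receptor, had 319, 485, 704 and 756 against 712, 705, 667 and 892, so that samples 2 and 4 lay among the entinostat plus anti-PD-1 samples and samples a and b below them. None of these genes passed the test.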
